A study of Mus musculus with 6106 samples.

Results

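The genes described here encode the translation initiation factors (eIF1 to eIF6) and elongation factors (eEF1 and eEF2) of the mouse cytosol, with the kinase, methyltransferase and binding proteins that carry their names. They were taken from the count table by symbol, as every row beginning with Eif1 to Eif6, Eef1 or Eef2 except the 4 Eif2ak kinases, and 59 of the 23725 rows matched. Of these, 56 had at least 20 UMIs (unique molecular identifiers, each standing for 1 captured mRNA molecule) over all cells used and were measured, 53 had at least 100 and 39 had at least 500. The rows under the minimum were Eif4ebp3 and Eef1a2 with 0 UMIs and Eif4e1b with 1, and the lowest rows above it were Eif2b3 with 65, Eif5a2 with 85 and Eif2d with 94.

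The cells were regulatory T cells (Tregs) of the spleen. They came from males 10 months old. All mice carried, on the B6 background, the alleles Nr4a1-Gfp, a GFP reporter of an early gene of T cell receptor (TCR) signalling, and Foxp3-Ires-Thy1.1, a surface reporter of the factor that defines Tregs. Live cells bearing TCRb, CD4 and Thy1.1 were sorted by their place in the range of GFP. The bin called GFPlow took the cells between 0 and 20 percent, GFPmed those between 40 and 60, and GFPhigh those between 80 and 100. Each bin became 1 inDrops library, a droplet method that primes mRNA with oligo dT. Where 3 values follow each other, they are in the order GFPlow, GFPmed, GFPhigh. The labels do not state how many mice stand behind a library. With 1 library for each of the 3 bins there are 0 replicates, so no difference between bins was tested, and every interval below is a 95% interval that covers counting error only.

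Translation of an mRNA begins when eIF4F binds its cap: eIF4E holds the cap, eIF4G is the scaffold and eIF4A is the helicase that opens the leader. The small ribosomal subunit arrives with eIF1, eIF1A, eIF3 and the ternary complex, in which eIF2 carries the initiator tRNA and GTP, and it scans to the start codon. There eIF5 and eIF5B drive GTP hydrolysis and subunit joining, and eIF2B recharges eIF2 with GTP. During elongation eEF1A delivers each aminoacyl-tRNA, the eEF1B subunits recharge eEF1A, eEF2 moves the ribosome by a codon and eIF5A helps it over difficult peptide bonds. A resting T cell keeps little translation running, and TCR stimulation is known to raise both ribosome production and the activity of these factors.

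Start-site sequences are shown for members on which the results below turn, because sequence classes known from regulation of this machinery can be read in them. The RefSeq table of promoter windows (GRCm38.p6, 250 bases before to 50 after the start, so 300 bases) held 45 of the 56 members in 59 windows. The first class is the E-box CACGTG, the preferred site of Myc with Max and of related factors, which reads the same on both strands. It stands in capitals in these 30-base stretches.
Eif5a, chr11:69921443-69921472, minus strand: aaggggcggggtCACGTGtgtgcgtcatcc
Eif4a1, chr11:69672595-69672624, minus strand: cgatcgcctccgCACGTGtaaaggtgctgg
Eif4e, chr3:138527192-138527221, plus strand: ggacacgtccgtCACGTGggcaggagccgg
Eif4h, chr5:134639488-134639517, minus strand: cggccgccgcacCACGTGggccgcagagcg
Eef2, chr10:81176576-81176605, plus strand: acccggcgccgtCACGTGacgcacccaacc
The E-box began 74 bases before the start in Eif5a, 189 in Eif4a1, 64 in Eif4e, 96 in Eif4h and 43 in Eef2. Eif5a has 6 listed starts, of which 3 had CACGTG in their window. In all, 12 members (26.7% of 45) had CACGTG in a window. The share was 12.2% of all genes with a window and at least 20 UMIs, and 8.09% of all genes in the RefSeq table. The other members with it were Eef2k, Eif1b, Eif3a, Eif3f, Eif3k, Eif4g1 and Eif5a2.

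The second class is the pyrimidine run that opens the mRNAs of ribosomal proteins and elongation factors (the 5′ terminal oligopyrimidine, or TOP, motif), through which mTORC1 is known to control their translation. The search took any run of at least 7 C or T on the coding strand, over 20 bases from 5 before the start. Such a run stands in capitals below, and whether it is the TOP motif of its mRNA was not tested.
Eef1a1, chr9:78481705-78481734, minus strand: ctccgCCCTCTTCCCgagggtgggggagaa
Eif3f, chr7:108934405-108934434, plus strand: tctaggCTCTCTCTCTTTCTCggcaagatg
Eif3l, chr15:79075213-79075242, plus strand: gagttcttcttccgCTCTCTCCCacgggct
Eif2s3x, chrX:94212632-94212661, minus strand: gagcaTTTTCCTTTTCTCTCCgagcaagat
Eif2s3y, chrY:1010585-1010614, plus strand: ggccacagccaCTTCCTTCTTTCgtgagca
Such a run was found in 9 members (20.0%). Among genes with a window, the share was 12.7% of those with at least 20 UMIs and 44.1% of the ribosomal protein genes. The other members with a run were Eif4enif1, Eif2b2, Eif2b5 and Eif1ad. Counted from the start, the run began at -5 in Eef1a1 and Eif2s3x and at -4 in Eif3f. It began at 2 in Eif2s3y, 5 in Eif3l, 6 in Eif2b2, 7 in Eif4enif1, 8 in Eif1ad and -17 in Eif2b5. Thus not every run found here opens its mRNA. A match is a description of these letters, not of a site in use.

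The table held 6106 cells, of which the 5435 with at least 500 UMIs were used, 1537 of them in GFPmed, 1775 in GFPhigh and the rest in GFPlow. The bins were of similar total depth, at 2435870, 2512277 and 2270376 UMIs, but a cell of GFPmed was deeper, with a median of 1470.5 UMIs over all its cells against 1037 in GFPlow and 1037.5 in GFPhigh. All 7 T cell and all 6 Treg markers were detected in each bin and summed to 4150.1, 3602.7 and 3741.7 UPM and to 2302.3, 2493 and 3548.3 UPM (UMIs per 1000000 of the bin), and Nr4a1 itself stood at 35.7, 92.7 and 340 UPM. Of the 6010 barcode pairs, 95 occurred in more than 1 library. Erythroid markers summed to 1399.1, 3002 and 1051.4 UPM with all 7 measured genes detected, myeloid markers to 72.7, 217.3 and 80.2 UPM with S100a8 and S100a9 at 0 in every bin, and plasma cell markers to 100.6, 66.9 and 325.9 UPM. All 8 B cell markers were detected in each bin too, at 272.6, 374.6 and 359.4 UPM in sum, while those of CD8 T or NK cells summed to 71.02, 117.8 and 75.8 UPM and those of platelets to at most 4 UMIs in a bin. The part of these cells in the values of GFPmed and GFPhigh was not tested beyond the values without cells of other lineages given below.

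As a whole the translation factors took a nearly constant part of the mRNA: 2.40%, 2.38% and 2.56% of UMIs. Their sum differed from GFPlow by -0.01 on the log2 scale in GFPmed (interval -0.03 to 0.00) and by 0.10 in GFPhigh (0.08 to 0.11). Within it the subunits of the initiation factors, 39 genes measured, summed to 7796, 7733 and 8247 UPM, and the 5 elongation subunits to 15076, 14845 and 16003 UPM. GFPhigh was thus the highest bin for both sums, by 0.081 and 0.086 over GFPlow, while the difference of GFPmed from GFPlow was -0.012 and -0.022. Both of these took the other sign, the first at 0.039 and 0.064 and the second at 0.028 and 0.053, when the bins were scaled by the median ratio of genes or by the total without ribosomal protein genes.

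**Figure D1:**
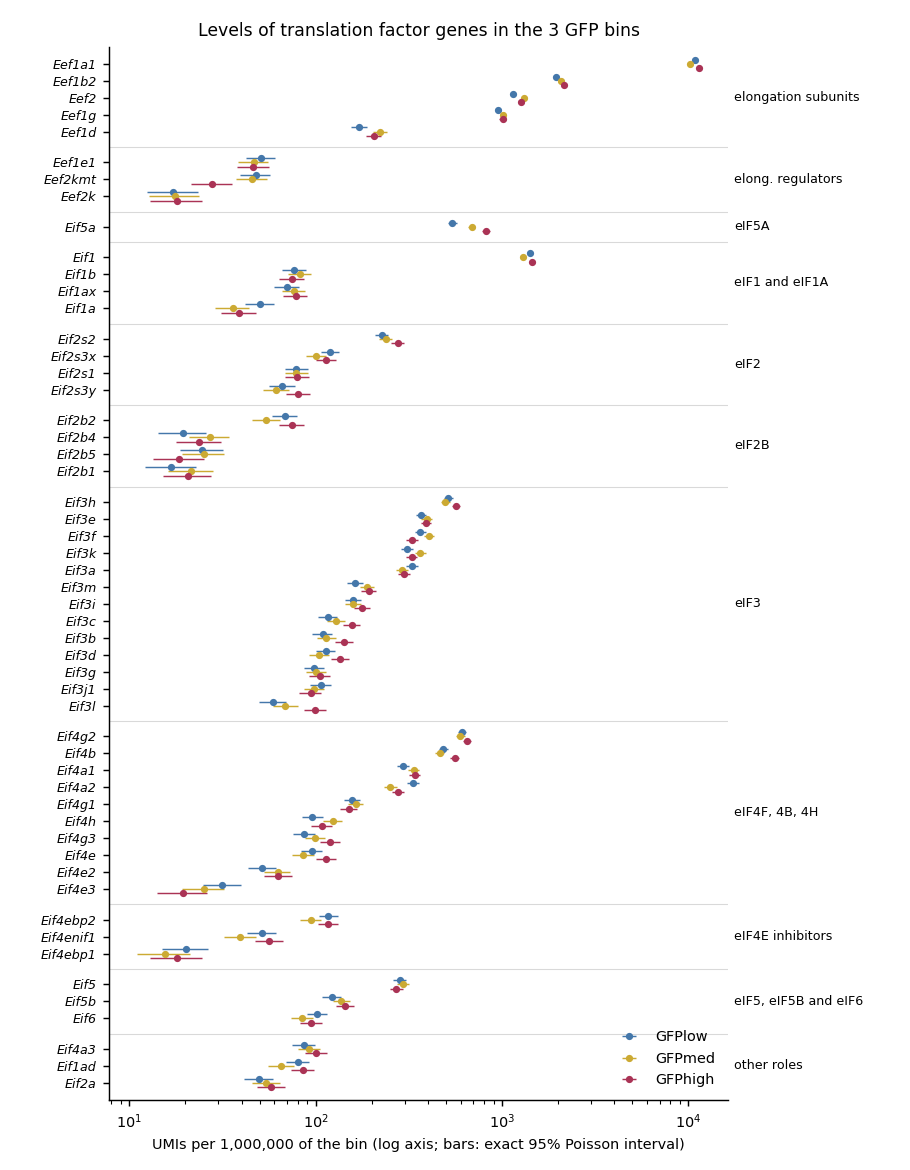
Level of each translation factor gene with at least 100 UMIs, by factor complex (rows), in GFPlow, GFPmed and GFPhigh (colours), as UMIs per 1000000 of the bin on a log axis; bars are exact 95% Poisson intervals. The bins lie close together in most rows, while Eif5a is spread from 542 in GFPlow to 821 in GFPhigh.

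The ribosomal protein genes, the other large class of translation mRNAs, followed another order. They made up 25.4%, 29.2% and 25.9% of UMIs, and 76 of the 78 measured were above 0 in log2 of GFPmed over GFPlow. Their summed log2 ratio of GFPmed over GFPlow was 0.20 (0.20 to 0.21), against -0.012 for the initiation subunits and -0.022 for the elongation subunits. Thus the bin with the most ribosomal protein mRNA was not the bin with the most factor mRNA.

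Few members passed a log2 ratio of 0.32 between bins, and in these counts their shares were below those of all genes. Of the 56 members, 6 were higher in GFPhigh than in GFPlow by that much (10.7%, against 25.0% of all 10113 genes with at least 20 UMIs) and 5 were lower (8.93%, against 18.1%). In GFPmed over GFPlow 6 were higher (against 18.7% of all genes) and 6 lower (against 20.9%). In GFPhigh over GFPmed 7 were higher (12.5%, against 25.2%) and 5 lower (against 15.5%). The split depended on the scaling: by the median ratio it was 7 higher and 3 lower in GFPmed over GFPlow and 3 higher and 6 lower in GFPhigh over GFPmed, and with ribosomal protein genes left out of the total it was 7 and 2, and 4 and 6. Without cells holding at least 2 UMIs of other lineages' markers, 5 members were higher and 3 lower in GFPmed over GFPlow. The share of all genes was not counted under these alternatives, so these counts have no background beside them.

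Many genes of the background are low, where counting error alone can pass the threshold, so the count was repeated among genes with at least 500 UMIs. There 5 of 39 members were higher in GFPhigh than in GFPlow (12.8%, against 12.6% of 2317 genes) and 0 were lower (against 11.6%). In GFPmed over GFPlow 3 were higher (7.69%, against 5.91%) and 1 lower (2.56%, against 14.3%), and in GFPhigh over GFPmed 4 were higher (10.3%, against 15.3%) and 0 lower (against 5.74%). No test stands behind the counts of 0, since each bin is 1 library. Over the 56 members the median log2 ratio was 0.11 in GFPhigh over GFPlow, with 38 above 0, beside a median of 0.05 over all genes. It was 0.04 in GFPmed over GFPlow, with 31 above 0, beside -0.03 over all genes, and 0.07 in GFPhigh over GFPmed, with 37 above 0, beside 0.08.

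**Figure D2:**
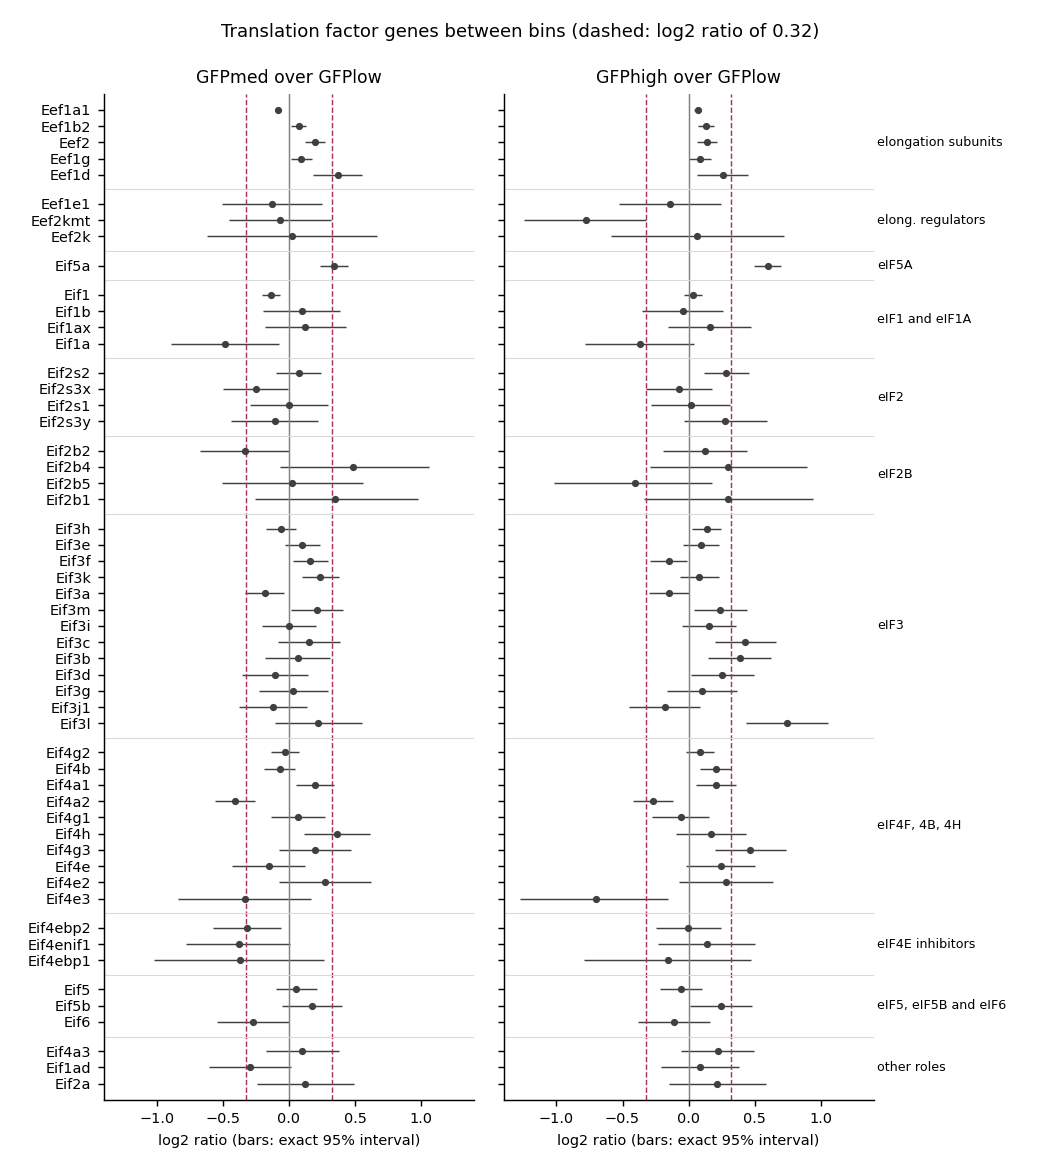
Log2 ratio of GFPmed over GFPlow (left) and of GFPhigh over GFPlow (right) for each translation factor gene with at least 100 UMIs, by factor complex; bars are exact 95% intervals of counting error and dashed lines mark a log2 ratio of 0.32 either way. Most points lie between the dashed lines, Eif5a lies to the right of them in both panels, and Eif4a2 lies to the left in GFPmed over GFPlow.

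The elongation subunits held most of the members' UMIs, and their sum differed little between bins. Eef1a1, which encodes the tRNA carrier of all these cells since Eef1a2 had 0 UMIs, stood at 10848, 10233 and 11383 UPM. The log2 ratio was 0.07 in GFPhigh over GFPlow and -0.08 in GFPmed over GFPlow, so GFPmed was the lowest bin at this scaling. Eef1a1 was not computed under the alternative scalings, where the elongation sum of GFPmed over GFPlow took the other sign. Eef1b2, the nucleotide exchange subunit, stood at 1957.8, 2062.3 and 2145.9 UPM and overlaps Ndufs1 on the opposite strand. Eef1g, the structural subunit of the exchange complex, stood at 950.4, 1014.6 and 1007.3 UPM, and Eef1d, another exchange subunit, at 171.2, 220.9 and 204.8 UPM. Unlike Eef1a1, these subunits were lowest in GFPlow, and Eef1d passed 0.32 in GFPmed over GFPlow (log2 0.37, 0.18 to 0.55). Eef2, the translocase, was likewise lowest in GFPlow, with 1148 UPM against 1315 in GFPmed and 1262 in GFPhigh (log2 0.20, 0.12 to 0.27, and 0.14, 0.06 to 0.21).

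The genes that act on the elongation factors were low. Eef2kmt, the lysine methyltransferase of eEF2, stood at 47.6, 45.4 and 27.7 UPM, the last from 63 UMIs. It was 1.71-fold lower in GFPhigh than in GFPlow (log2 -0.77, -1.245 to -0.32), and GFPhigh stood below the other bins. Its exons overlap those of Alg1 on the opposite strand, and use of strand in the counting was not given, so reads of the 2 genes cannot be told apart. Eef2k, the kinase that inhibits eEF2, stood at 17.2, 17.5 and 18.1 UPM, and Eef1e1, which in spite of its name is a scaffold protein of the tRNA synthetase complex, at 50.9, 46.6 and 46.2 UPM.

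Eif5a had the largest ratio of GFPhigh over GFPlow among the members with at least 1000 UMIs, and its level was graded. It encodes eIF5A, a factor of elongation and termination and the only protein family known to carry hypusine, an amino acid made from the polyamine spermidine. Eif5a stood at 542 UPM (513 to 572), 687 UPM (655 to 720) and 821 UPM (785 to 860), from 1320, 1725 and 1865 UMIs. The levels followed the order of the GFP bins and none of the intervals overlapped. GFPhigh was 1.52-fold above GFPlow (log2 0.60, 0.50 to 0.70), GFPmed was 1.27-fold above GFPlow (log2 0.34, 0.24 to 0.45) and GFPhigh was 1.20-fold above GFPmed (log2 0.26, 0.16 to 0.35). The log2 ratio of GFPhigh over GFPlow lay between 0.42, in cells of 1000 to 1999 UMIs, and 0.67, in cells of at least 1000 UMIs, over the alternatives tried, and was 0.60 without cells of other lineages. The paralog Eif5a2 had 85 UMIs in all, at 12.7, 10.3 and 12.3 UPM, and made up 2.29%, 1.48% and 1.48% of the UMIs of both genes.

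The genes for hypusine and polyamine synthesis, a list of enzymes and of the regulators Oaz1, Oaz2 and Azin1, were not all graded like Eif5a. Of the 9 genes in this list, 7 were above 0 in log2 of GFPhigh over GFPlow with a median of 0.17. The regulators Oaz1 (0.17), Oaz2 (0.28) and Azin1 (0.03) were among the 7, so the count is not one of enzymes alone. Past 0.32, 3 were higher, a share near the 25.0% of all genes. Odc1, ornithine decarboxylase, which begins polyamine synthesis, stood at 85.8, 81.6 and 144.03 UPM (log2 0.75, 0.49 to 1.005, GFPhigh over GFPlow). Srm, spermidine synthase, stood at 51.7, 61.3 and 75.8 UPM (log2 0.55, 0.21 to 0.89), and Dhps, deoxyhypusine synthase, at 22.6, 22.3 and 31.7 UPM (log2 0.49, -0.04 to 1.02). In GFPmed over GFPlow the list had 2 genes above 0 and a median of -0.18, so in GFPmed, where Eif5a was already higher, most of these genes were not.

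Among the factors of scanning, Eif1, which guards the fidelity of the start codon, was the most abundant, at 1415.5, 1288.1 and 1447.8 UPM. GFPmed was the lowest bin (log2 -0.14, -0.21 to -0.07, over GFPlow), as for Eef1a1, and Eif1 too was not computed under the alternative scalings. Its paralog Eif1b stood at 76.8, 82 and 74.4 UPM. eIF1A is encoded by Eif1ax, at 69.8, 76 and 78 UPM, and by Eif1a, at 50.1, 35.8 and 38.8 UPM, which are close copies whose reads the counting could have divided. Eif1a made up 41.8% of the UMIs of this pair in GFPlow (36.1 to 47.7) and 32% and 33.2% in the other bins. Its lower level in GFPmed (log2 -0.48) was not kept when every cell was thinned to 500 UMIs, where it was 0.15.

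The subunits of eIF2 summed to 490.2, 478.1 and 548.8 UPM, highest in GFPhigh (log2 0.16, 0.05 to 0.28, over GFPlow). Eif2s2, the beta subunit, carried most of that difference, at 225.8, 237.6 and 275.3 UPM (log2 0.29, 0.12 to 0.45). Eif2s1, the alpha subunit that stress kinases phosphorylate, was level at 78.8, 78.8 and 79.7 UPM. The gamma subunit has a copy on each sex chromosome, and both were detected in these male mice, with Eif2s3x at 119.5, 100.3 and 113.6 UPM and Eif2s3y at 66.1, 61.3 and 80.2 UPM. The Y copy took 35.6%, 37.9% and 41.4% of the pair's UMIs, with intervals that overlapped between bins (31.2 to 40.2, 33.2 to 42.8 and 36.7 to 46.1). The reads of such near-identical copies may have been divided between them by the counting.

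The 5 subunits of eIF2B, the exchange factor of eIF2, summed to 137.9, 138.5 and 144.5 UPM and did not differ beyond counting error (log2 0.07, -0.16 to 0.29, GFPhigh over GFPlow). Eif2b2 stood at 68.1, 54.1 and 74.4 UPM, Eif2b4 at 19.3, 27.1 and 23.8, Eif2b5 at 24.6, 25.1 and 18.5 and Eif2b1 at 16.8, 21.5 and 20.7. Several of these passed 0.32 in some pair of bins, but at 65 to 471 UMIs each most intervals were wide, as for Eif2b4 in GFPmed over GFPlow (-0.07 to 1.06). That of Eif2b2 in GFPhigh over GFPmed did not include 0 (log2 0.46, 0.13 to 0.80). Eif2b4 also overlaps Snx17 on the opposite strand.

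The list for the kinases of eIF2 and the stress response that follows their action likewise had no common direction. Of its 9 measured genes 5 were above 0 in log2 of GFPhigh over GFPlow, with a median of 0.03, 3 were higher and 3 lower past 0.32, beside the 25.0% and 18.1% of all genes. Eif2ak2, the kinase that binds double-stranded RNA, stood at 22.2, 35 and 31.7 UPM (log2 0.51, -0.01 to 1.05). Ppp1r15b, a subunit of the phosphatase that restores eIF2, stood at 102.6, 77.6 and 77.5 UPM (log2 -0.40, -0.69 to -0.12), its stress-inducible relative Ppp1r15a at 27.1, 32.6 and 19.8, and Ddit3, a transcription factor of the stress response, at 16.8, 25.5 and 21.6.

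Of the 13 subunits of eIF3, the largest initiation factor, 10 were above 0 in log2 of GFPhigh over GFPlow, and the sum stood at 2808, 2912 and 3010 UPM (log2 0.10, 0.05 to 0.15). Eif3l was the subunit furthest from 0, at 59.1, 68.9 and 99.1 UPM. GFPhigh was 1.67-fold above GFPlow (log2 0.74, 0.44 to 1.06), and GFPhigh stood above both other bins, whose intervals overlapped. Over the alternatives this ratio ranged from 0.48 to 0.90. Eif3c and Eif3b, subunits of the core, were likewise highest in GFPhigh, with GFPmed and GFPlow not apart beyond counting error over all cells used. Eif3c stood at 116.2, 128.97 and 156.4 UPM (log2 0.43, 0.20 to 0.66) and Eif3b at 108.8, 113.8 and 142.3 UPM (log2 0.39, 0.15 to 0.63). Over the alternatives the ratio of GFPhigh over GFPlow ranged from 0.33 to 0.50 for Eif3c and from 0.19 to 0.41 for Eif3b. Eif3b also ranged from 0.06 to 0.34 in GFPhigh over GFPmed and from -0.04 to 0.35 in GFPmed over GFPlow.

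Other eIF3 subunits went the opposite way or peaked in GFPmed, so the complex was not shifted as a unit. Eif3a, the largest subunit, stood at 328.8, 289.8 and 296.9 UPM and Eif3j1, the loosely bound subunit, at 106.3, 97.9 and 93.8 UPM. Both were highest in GFPlow, but in GFPhigh over GFPlow their intervals included 0 (-0.30 to 0.002 and -0.45 to 0.09). That of Eif3a in GFPmed over GFPlow did not (-0.33 to -0.04). Eif3f, one of the members with a pyrimidine run, stood at 364.1, 407.6 and 327.7 UPM and Eif3k at 309.1, 364.2 and 326.8 UPM. Both were highest in GFPmed. For Eif3f the log2 ratio of GFPhigh over GFPmed was -0.31 (-0.45 to -0.18). The remaining subunits were Eif3h at 515.6, 494.8 and 566.4 UPM, Eif3e at 367.01, 393.7 and 391.6, Eif3m at 162.98, 188.7 and 192.5, Eif3i at 158.9, 158.8 and 176.6, Eif3d at 112.9, 104.7 and 134.8 and Eif3g at 98.1, 100.3 and 105.3 UPM. Of these Eif3d passed 0.32 in GFPhigh over GFPmed (log2 0.36, 0.12 to 0.61). Eif3j1 overlaps Spg11 on the opposite strand.

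Within eIF4F the helicase paralogs differed in opposite directions. Eif4a1, the copy linked to growing cells, stood at 293.9, 336.8 and 339.1 UPM from 716, 846 and 770 UMIs, lowest in GFPlow. Eif4a2, its paralog, stood at 333.4, 251.2 and 276.6 UPM from 812, 631 and 628 UMIs, highest in GFPlow. In GFPhigh over GFPlow the log2 ratio was 0.21 (0.06 to 0.36) for Eif4a1 and -0.27 (-0.42 to -0.12) for Eif4a2, and in GFPmed over GFPlow it was 0.20 (0.05 to 0.34) and -0.41 (-0.56 to -0.26). Eif4a1 thus made up 46.9% of the pair's UMIs in GFPlow (44.3 to 49.4), but 57.3% in GFPmed (54.7 to 59.8) and 55.1% in GFPhigh (52.4 to 57.7). The interval of GFPlow did not overlap those of the other bins over all cells used, but within the classes of depth given below most did.

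For Eif4a1 the GFPmed side of this exchange was not kept beyond counting error in all alternatives tried, while Eif4a2 kept its sign. In GFPmed over GFPlow the log2 ratio of Eif4a1 was -0.0052 (-0.26 to 0.25) after each cell was thinned to 500 UMIs. It was -0.069 (-0.27 to 0.13) in cells of 1000 to 1999 UMIs and 0.18 (0.02 to 0.34) in cells of at least 1000 UMIs. Because the intervals of both negative values included 0, a change of sign with depth was not shown. The log2 ratio of Eif4a2 stayed between -0.47 and -0.30 over all alternatives tried. In GFPhigh over GFPlow Eif4a1 lay between 0.12 and 0.24 and Eif4a2 between -0.35 and -0.13. Eif4a2 overlaps Rfc4 on the opposite strand, a gene of 84 UMIs against 2071 for Eif4a2.

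The cap-binding proteins were low beside the helicases and did not share a direction. Eif4e, the main cap-binding protein, stood at 95.7, 86 and 113.2 UPM, with GFPhigh above GFPmed by 0.40 (0.13 to 0.66) on the log2 scale. Its ratio of GFPhigh over GFPlow, 0.24 (-0.02 to 0.50), took the other sign in thinned cells (-0.09) and without cells that passed the effector gate, defined below, at 1 UMI (-0.08). Eif4e2, a cap-binding relative that mostly represses, stood at 51.7, 62.5 and 63 UPM. Eif4e3, another relative, ran against the GFP order at 31.6, 25.1 and 19.4 UPM from 77, 63 and 44 UMIs (log2 -0.70, -1.27 to -0.15, GFPhigh over GFPlow). That ratio was -0.39 without the same cells and -0.05 in cells of 1000 to 1999 UMIs.

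Among the scaffolds, Eif4g3 was higher in GFPhigh than in GFPlow beyond counting error, while the interval of Eif4g1 included 0. Eif4g3 stood at 86.6, 99.1 and 119.8 UPM (log2 0.47, 0.20 to 0.73, GFPhigh over GFPlow), and Eif4g1 at 156.4, 163.6 and 150.2 UPM (log2 -0.06, -0.27 to 0.16). Eif4g3 therefore took 35.6%, 37.7% and 44.4% of the pair's UMIs, and the intervals of GFPlow (31.8 to 39.6) and GFPhigh (40.4 to 48.4) did not overlap. Eif4g2, the relative that does not bind eIF4E and serves other modes of initiation, stood at 611.3, 598.3 and 647.9 UPM. The helicase partners were Eif4b, at 484.4, 461.7 and 558.1 UPM, highest in GFPhigh (log2 0.20, 0.09 to 0.32, over GFPlow), and Eif4h, at 96.1, 123.4 and 107.9 UPM, highest in GFPmed (log2 0.36, 0.11 to 0.61), where the ratio was 0.24 without cells of other lineages.

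The inhibitors of eIF4E were lowest in GFPmed. They summed to 188.4, 148.9 and 191.2 UPM, a log2 ratio of -0.34 (-0.54 to -0.14) in GFPmed over GFPlow and of 0.36 (0.16 to 0.56) in GFPhigh over GFPmed, with all 3 measured genes on the same side. Eif4ebp2, the most abundant of the binding proteins that mTORC1 releases from eIF4E, stood at 93.9 UPM in GFPmed against 116.7 in GFPhigh, with GFPlow close to the latter, Eif4ebp1 at 20.1, 15.5 and 18.1 UPM, and Eif4enif1, the protein that takes eIF4E into the nucleus, at 51.3, 39.4 and 56.4 UPM. Eif4ebp3 had 0 UMIs in every bin, where 3 UMIs would be 1.23, 1.19 and 1.32 UPM.

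The factors of subunit joining were level as a sum, at 505.8, 515.1 and 509.6 UPM. Eif5, the GTPase activator, stood at 282.03, 293.4 and 270.9 UPM and Eif6, which keeps the ribosomal subunits apart, at 101.8, 84.4 and 94.3 UPM. Eif5b, the joining GTPase, stood at 121.9, 137.3 and 144.5 UPM (log2 0.24, 0.01 to 0.48, GFPhigh over GFPlow) and overlaps Rev1 on the opposite strand.

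A few members carry the name but act elsewhere. Eif4a3, a helicase of the exon junction complex, stood at 86.2, 92.3 and 100.4 UPM, Eif1ad, a protein related to eIF1A that acts in ribosome assembly, at 80.1, 65.3 and 85 UPM, and Eif2a, which is not a subunit of eIF2, at 49.7, 54.1 and 57.7 UPM. Eif1ad overlaps Banf1 and Eif2a overlaps Serp1 on the opposite strand. Eif2d, with 94 UMIs and an overlap with Rassf5, stood 0.72 above GFPlow in GFPmed on the log2 scale, at an interval of -0.03 to 1.52.

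Cells of different depth were compared because a cell that holds more mRNA weighs more in a sum. In GFPhigh the level of Eif5a was higher in deeper cells, at 580 UPM in cells of 500 to 999 UMIs, 737 from 1000, 749 from 1500, 999 from 2000 and 1732 in the 45 cells of 3000 or more (1543 to 1938). In GFPlow it ran without such an order, between 483 and 632 UPM, and the last class held 9 cells. In GFPmed it lay between 593 and 731 UPM up to the class from 2000 and at 895 in the 63 cells of 3000 or more. GFPmed and GFPhigh were above GFPlow in each of the 5 classes. In the shallowest the interval of GFPhigh (517 to 649) overlapped those of GFPlow at 486 (434 to 543) and GFPmed at 593 (497 to 701), and those of GFPmed and GFPlow overlapped in each class. Without the deepest 2 percent of cells in each bin, the log2 ratio of GFPhigh over GFPlow was 0.49.

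In GFPhigh Eif4a2 showed the reverse. It stood at 329 UPM in the shallowest class and 193 in the deepest, with the classes between them in order. In GFPlow it stood at 340, 331, 367 and 244 UPM in the first 4 classes, without such an order, and the deepest held 6 UMIs in 9 cells (68.2 to 404 UPM). The share of Eif4a1 in the pair accordingly ran from 48.1% to 65.7% in GFPhigh. The summed initiation subunits, by contrast, kept within 8008 and 8837 UPM over the 5 classes of GFPhigh. Depth here is the number of UMIs captured from a cell, in which cell size, capture and cells sharing a droplet cannot be told apart.

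**Figure D3:**
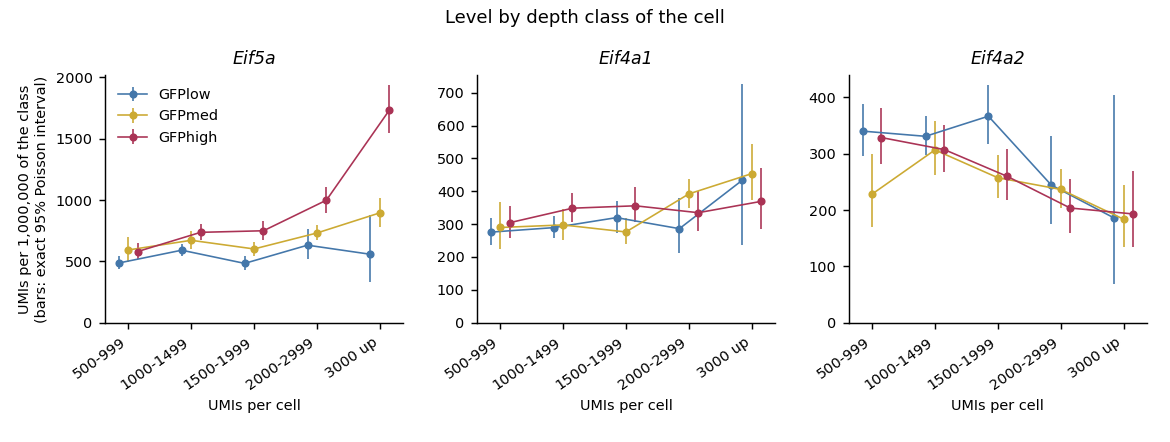
Level of Eif5a, Eif4a1 and Eif4a2 as UMIs per 1000000 within 5 classes of UMIs per cell (horizontal axis) in GFPlow, GFPmed and GFPhigh; bars are exact 95% Poisson intervals. In GFPhigh Eif5a goes from 580 to 1732 and Eif4a2 from 329 to 193 between the shallowest and deepest classes.

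The bins hold cells in different states, so members were also compared between cells of the same library. Cells were gated by their UMIs, after thinning to 500, of gene lists that hold no member: early TCR genes (such as Nr4a1, Egr1 and Irf4), effector genes (such as S100a4, Itgb1 and Klrg1), mitotic genes and interferon genes. A gated level is the sum over all UMIs of those cells. The gates select on expression within a library, so they describe cells and not a treatment.

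The early TCR gate at 2 UMIs held 9.80% of the cells in GFPhigh, while GFPlow and GFPmed had 36 and 44, under the minimum of 50 for a value. In GFPhigh the gated cells had Eif5a at 1191 UPM against 781 in the other cells (log2 0.61, 0.42 to 0.80) and Eif4a1 at 488 against 323 (log2 0.60, 0.29 to 0.89). Eif1 stood at 1714 against 1419 (log2 0.27, 0.12 to 0.43) and Eif4a2 at 215 against 283 (log2 -0.39, -0.86 to 0.03). The elongation subunits, by contrast, were lower in sum in the gated cells, at 13635 against 16261 UPM (log2 -0.25, -0.31 to -0.20). Eef1a1 held most of that gap, at 9324 against 11607 UPM (log2 -0.32, -0.38 to -0.25). Eef1d was lower too (log2 -0.59, -1.19 to -0.08), while the intervals of Eef2, Eef1b2 and Eef1g included 0. Ribosomal protein genes were also lower (log2 -0.20), while the initiation subunits were higher (log2 0.12, 0.05 to 0.18). Median depth was near equal, at 1186 UMIs in the gated cells and 1123 in the others.

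With the gate at 1 UMI all bins could be read, with 6.12%, 9.63% and 20.8% of cells in the gate. Eif4a1 was above the other cells by 0.27, 0.26 and 0.43 on the log2 scale and Eif4a2 below, at -0.30, -0.35 and -0.28, so the pair went the same 2 ways in every bin, although the intervals included 0 for both genes in GFPlow and GFPmed and for Eif4a2 in GFPhigh. Eif5a was above by 0.16, 0.14 and 0.53, and only in GFPhigh did its interval exclude 0; the difference between bins was not tested. Without the cells gated at 1 UMI the log2 ratio of Eif5a in GFPhigh over GFPlow was 0.48 in place of 0.60, smaller but in the same direction.

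The effector gate at 2 UMIs held 23.6%, 12.5% and 9.24% of cells, fewest in GFPhigh. These cells had fewer UMIs of elongation subunits in each bin, at 11793 against 16031 UPM in GFPlow (log2 -0.44, -0.48 to -0.40), 12430 against 15165 in GFPmed (-0.29, -0.34 to -0.24) and 13976 against 16203 in GFPhigh (-0.21, -0.27 to -0.16). Ribosomal protein genes went with them (-0.49, -0.39 and -0.26), whereas the initiation subunits stayed near the other cells (-0.05, -0.01 and -0.07). In GFPlow the gap was widest for Eef1g, at 602 against 1052 UPM (log2 -0.80), and Eef1b2, at 1296 against 2151 (log2 -0.73), and smaller for Eef1a1 (-0.39) and Eef2 (-0.22). When cells with at least 1 effector UMI were left out, which took 44.7%, 31.2% and 27.7% of the cells, the summed elongation subunits of GFPhigh over GFPlow went from 0.086 to 0.0065, so the higher sum in GFPhigh was not seen among the remaining cells.

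Eif4e3 and the eIF4E-binding protein Eif4ebp2, picked after their values were seen, were higher in effector gate cells of GFPlow. Eif4e3 was at 55 against 25 UPM in GFPlow (log2 1.14, 0.42 to 1.82), and above the other cells also in GFPmed (0.73) and GFPhigh (0.77), where the intervals included 0. Eif4ebp2 had a log2 ratio of 0.48 there (0.08 to 0.85), of 0.55 in GFPmed and of -0.68 in GFPhigh, with intervals that included 0 in the last 2. Over the 34 or 35 members with at least 200 UMIs in a bin, the median log2 ratio of gated over other cells was -0.10, -0.09 and -0.10, beside 0.15, 0.12 and 0.03 over all genes with that many UMIs.

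**Figure D4:**
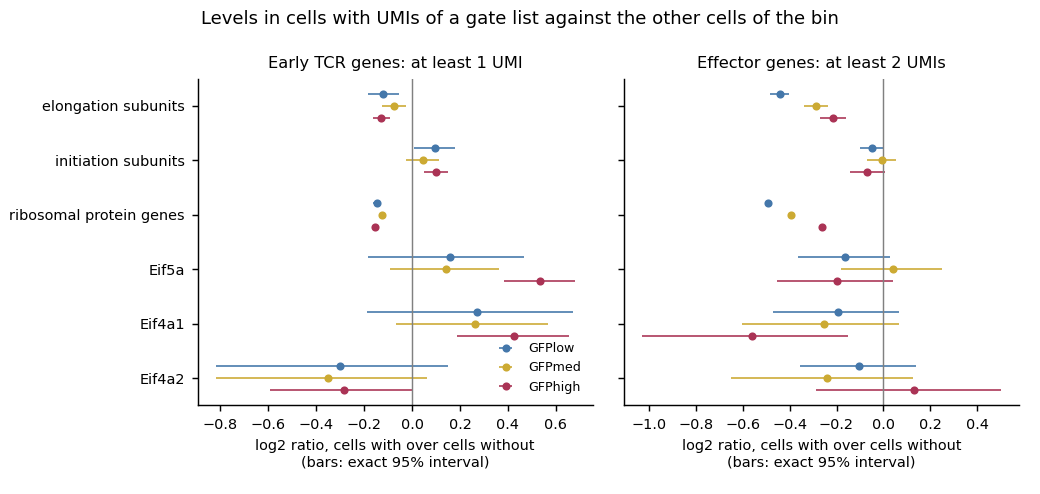
Log2 ratio of level in gated cells over the other cells of the same bin, for the early TCR gate at 1 UMI (left) and the effector gate at 2 UMIs (right), in GFPlow, GFPmed and GFPhigh; bars are exact 95% intervals of counting error. Elongation subunits and ribosomal protein genes lie below 0 in both panels, and in the early TCR panel Eif4a1 lies above 0 and Eif4a2 below.

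The interferon gate at 2 UMIs (7.68%, 8.91% and 7.66% of cells) had initiation subunits at -0.05, -0.08 and -0.01 and elongation subunits at -0.10, -0.08 and 0.01 relative to the other cells. Eif4a1 was lower in its cells in GFPlow (-0.73, -1.29 to -0.25) and GFPmed (-0.50, -0.94 to -0.10) and at 0.01 in GFPhigh. The mitotic gate at 2 UMIs held 10, 13 and 14 cells, too few for a value. At 1 UMI (5.98%, 6.31% and 6.14% of cells) the elongation subunits were again lower, at -0.24, -0.28 and -0.09, and Eif5a stood at 0.05, 0.56 (0.34 to 0.77) and 0.27 (0.01 to 0.51).

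Members with and without the motifs shown above are set side by side here. The 12 members with CACGTG had a median log2 ratio of 0.07 in GFPhigh over GFPlow with 7 above 0, and the 33 matched members without it 0.16 with 25 above 0. Myc itself stood at 114.5, 152.1 and 196 UPM (log2 0.77, 0.56 to 0.996, GFPhigh over GFPlow), graded like Eif5a. The 9 members with a pyrimidine run had a median of 0.09 in GFPhigh over GFPlow and -0.11 in GFPmed over GFPlow, against 0.16 and 0.07 for the 36 without. In GFPhigh over GFPmed the order was reversed, at 0.38 against 0.04.

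Other parts of the translation apparatus were read from lists outside the members. Of 24 genes in the ribosome biogenesis list, 18 were above 0 in log2 of GFPhigh over GFPlow, with a median of 0.20. Past 0.32, 9 were higher and 2 lower, beside the 25.0% and 18.1% of all genes. The list includes Myc, given above, which counts among the 18 and the 9. Those named are Ncl, the nucleolar RNA-binding protein nucleolin, at 416.7, 460.5 and 540.9 UPM (log2 0.38, 0.26 to 0.50), the pseudouridylation proteins Nhp2 (0.52, 0.23 to 0.82) and Dkc1 (0.48, 0.17 to 0.79), and Bop1, a factor of large subunit assembly, at 40.2, 37.4 and 26.4 UPM (-0.60, -1.09 to -0.13).

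Of 16 genes that bind poly(A) or regulate eIF4F, 9 were above 0 with a median of 0.06, 2 were higher and 3 lower past 0.32, against 25.0% and 18.1% of all genes. Pdcd4, the inhibitor that holds eIF4A, stood at 298.1, 325.2 and 401.3 UPM (log2 0.43, 0.29 to 0.57), highest in GFPhigh. Pabpc4, a poly(A)-binding protein, stood at 34.1, 39 and 54.2 UPM (0.67, 0.26 to 1.09). Cyfip2, at 238.1, 199.02 and 185.9 UPM (-0.36, -0.54 to -0.17), and Cyfip1, which binds eIF4E, at 46.4, 47.4 and 33.5 UPM (-0.47, -0.91 to -0.04), were lower in GFPhigh.

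Of 11 measured mTORC1 and S6 kinase genes 8 were above 0, with a median of 0.18, 3 higher past 0.32 and 0 lower. The background for this list and for those that follow is again 25.0% of all genes higher and 18.1% lower. Rps6ka1, a ribosomal S6 kinase of the ERK pathway, stood at 242.6, 224.1 and 312.3 UPM (log2 0.36, 0.20 to 0.52). Of 22 cytosolic tRNA synthetases and partners 15 were above 0, with a median of 0.14, 4 higher and 1 lower. The named ones were Mars, the methionine enzyme, at 10.3, 15.1 and 21.1 UPM (1.03, 0.32 to 1.80), Yars, the tyrosine enzyme, at 15.6, 19.5 and 23.8 UPM (0.60, -0.02 to 1.247), and the scaffold Aimp1 at 72.3, 69.7 and 96.5 UPM (0.42, 0.12 to 0.71). Of 8 termination and recycling genes 6 were above 0 and 1 was higher past 0.32, Mcts1, which helps recycle the small subunit, at 65.3, 65.3 and 91.6 UPM (0.49, 0.18 to 0.80). Of 8 mitochondrial translation factors 4 were above 0 and all 4 passed 0.32, among them Tufm, the mitochondrial elongation factor that carries tRNA, at 47.6, 45 and 61.7 UPM (0.37, 0.01 to 0.74), while the intervals of the other 3 included 0.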

How the data were processed

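Each sample in the series is 1 cell. The authors deposited, for every gene in each cell, a raw count of UMIs from NextSeq500 sequencing. TopHat2, SAMtools and the mm10 genome are named in the submitters' processing notes. Versions, annotation, strand setting and UMI collapsing were not given in the sources used here. The table held 98.7% of the UMIs stated per cell in the labels.

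Cells with at least 500 UMIs were kept and no doublets were removed in the reported values. UMIs were summed per bin and scaled to 1000000 (UPM). A log2 ratio added 0.5 UMI to each count. Intervals at 95% are exact Poisson for a level, exact conditional binomial for a ratio and Clopper-Pearson for a share, and PCR and cell sampling add error that they do not cover. No test was made, since each bin is 1 library. The interval code was tested on simulated data. Python 3.11.15, numpy 2.4.6, scipy 1.17.1 and pandas 2.3.3 were used. Overlapping genes came from GENCODE M21 and promoter windows from RefSeq (GRCm38.p6).

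The members, lists, gates and alternatives were chosen with earlier results of these data known. Members with at least 100 UMIs are named with levels, those with 20 to 99 with their UMIs, and genes of other lists where they have at least 100 UMIs and differ by the threshold (1.25-fold, or 0.32 on the log2 scale) between GFPhigh and GFPlow, at most 6 per list. The examples given for a list are a part of those. Leaving out cells gated at 1 UMI was added after seeing the data. Eif2d is named with a ratio, and Ndufs1 and the other overlapping genes without values, after their values were seen.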

Additional observations from a re-analysis of the deposited data

How the results depend on the processing

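No paired analysis was possible because each bin is 1 library, so no replicate could be left out either. Log2 values and counts of members past 0.32 follow, and the cause of each shift was not tested. The share of all genes past 0.32 was not counted under these alternatives. A changed count is therefore not a result about the members. Gated cells were left out at 1 UMI of the gate or more. For GFPhigh over GFPlow, the elongation sum (0.086) was 0.056 with median ratio scaling, 0.059 in cells of 1000 to 1999 UMIs and 0.0065 without effector gate cells, and the initiation sum (0.081) was 0.051 with median ratio scaling. The 6 higher members became 13 in cells of at least 1000 UMIs and 11 in thinned cells. The 5 lower became 8 in thinned cells, 2 in cells of 1000 to 1999 UMIs and 3 without effector gate cells.

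For GFPmed over GFPlow, the elongation sum (-0.022) reversed to 0.028 with median ratio scaling, 0.053 without ribosomal protein genes in the total and 0.019 in thinned cells, and was -0.10 without effector gate cells. The initiation sum (-0.012) was 0.039, 0.064 and -0.052 with median ratio scaling, without ribosomal protein genes and without effector gate cells. The 6 higher became 3 without the deepest 2 percent of cells. The 6 lower became 3 with median ratio scaling, 2 without ribosomal protein genes and 3 without cells of other lineages. Eif4a1 (0.20) was -0.0052 in thinned cells and -0.069 in cells of 1000 to 1999 UMIs. Eif1a (-0.48) was 0.15 in thinned cells. The intervals of these shifted values of Eif4a1 and Eif1a included 0, which is not said of the sums.

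For GFPhigh over GFPmed, the elongation sum (0.11) was 0.028, 0.042, 0.13, 0.061 and 0.084 with median ratio scaling, without ribosomal protein genes, in cells of at least 1000 UMIs, in thinned cells and without the deepest cells. The initiation sum (0.093) was 0.013 and 0.026 under the first 2 of these. The 7 higher became 3, 4 and 11 with median ratio scaling, without ribosomal protein genes and in thinned cells. The 5 lower became 3 among members with at least 100 UMIs, 11 in thinned cells, 8 in cells of 1000 to 1999 UMIs and 3 without early TCR gate cells. With gates at 1 UMI the elongation sum was -0.13 in early TCR cells of GFPhigh (-0.25 at 2 UMIs) and -0.28, -0.13 and -0.14 in effector cells of the 3 bins (-0.44, -0.29 and -0.21).

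Of the other values for sums and counts 100 stayed within their limits. Single genes were checked this way only for Eif5a, Eif4a1, Eif4a2, Eif3l, Eif3c, Eif3b, Eif4g3, Eif4e3, Eef2kmt, Eif1a, Eef1d, Eif4h and Eif4e. Of the other values for these genes 366 stayed within their limits and 21 moved. Median ratio scaling shifted the median of all genes in GFPhigh over GFPmed from 0.08 to -0.005. Depth limits single members: Eif2b1, for one, had an interval of -0.34 to 0.94 in GFPhigh over GFPlow.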
